A study of Mus musculus with 8 samples.

Results

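The 3 main fibrillar collagen genes of the heart, Col1a1, Col1a2 and Col3a1, and the collagen chaperone gene Serpinh1 were followed through 2 deposited tables of N6-methyladenosine (m6A) peaks from mouse left ventricle. They were chosen by gene: every peak whose Entrez gene ID is that of 1 of these 4 genes was taken, which gave 18 of the 581 listed peaks, 6 of 116 in the table of infarcted (MI) against sham-operated hearts and 12 of 465 in the table of aavFto against aavgnp hearts. All groups were C57BL/6 mice of wild-type genotype, and the labels place all of them 1 week after MI, the sham group included. Beside the sham and MI conditions there were 2 vector conditions, aavgnp and aavFto, both in infarcted hearts, which makes 4 in all. The labels expand neither vector name, and aavFto is read here as Fto given by vector and aavgnp as its comparison. Not given in the sources used here are the promoter and target cells of the vectors, the age of the animals and the number of animals behind a library.

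m6A is a methyl group on adenosines inside RNA, often found near the stop codon of messenger RNAs, and FTO is an enzyme that can remove it. MeRIP-seq reads it by pulling down RNA fragments with an antibody against m6A and comparing them with fragments that skipped the pulldown (the input). Type I collagen is built from alpha chains encoded by Col1a1 and Col1a2, and type III collagen from the chain of Col3a1. Each chain carries a long stretch of Gly-X-Y repeats that winds into the triple helix, followed by a C-terminal propeptide through which chains find each other. Serpinh1 encodes HSP47, a chaperone of the endoplasmic reticulum that binds folded procollagen. After infarction activated fibroblasts lay down both collagens as scar.

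Each condition had 1 input and 1 MeRIP library, 8 in all, with no replicate of any. No difference below therefore has a replicate check, and every p-value and false discovery rate (FDR) is the authors' own and compares libraries, not conditions. Levels per library and library depths were not analysed here. The sign of the log2 change is not stated in the file headers and was read as MI over sham and as aavFto over aavgnp. The MI table held only changes of at least 1.01 in size, whereas the aavFto table went down to 0.0041. All 7 cardiomyocyte markers looked for had a listed peak in the aavFto table.

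The peaks of the 4 genes differed in shape between the tables. In MI against sham they were short, with 90 to 361 nt of RNA in 1 to 3 blocks (a block is an uninterrupted stretch on the genome, so that a peak across a splice junction has several). Their median length was 120.5 nt, against 150.5 nt over all peaks of that table. In aavFto against aavgnp they were long, from 150 to 3923 nt in 1 to 45 blocks, with a median of 480 nt against 181 nt over all peaks. Of these 12 peaks, 11 had more than 1 block, compared with 48.0% of all listed peaks. Peaks of such length do not place m6A at a single adenosine.

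Col1a1 (Entrez ID 12842, chromosome 11 from 94936224 to 94953042 on mm10) had 3 peaks in the aavFto table, which together covered 4673 nt in 52 blocks. The second of them, chr11:94939731-94951724 on the plus strand, had 45 blocks and 3923 nt. It was the longest peak, the one with the most blocks and the one with the smallest enrichment p among the 465 peaks, at a log10 p of -38.5 in the authors' deposited table. Its fold enrichment over input, 118 in the authors' deposited table, ranked 9th. The first, chr11:94936404-94939434, began 180 nt from the 5′ end of the gene and had 6 blocks and 450 nt. The third, chr11:94952144-94952443, was 1 block of 300 nt that ended 599 nt before the 3′ end. Only 296 and 419 nt of genome separated the 3 peaks.

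Col3a1 (Entrez ID 12825, chromosome 1 from 45311538 to 45349706) also had a long peak of many blocks. Unlike in Col1a1, no peak was listed near the 5′ end of Col3a1, in the first 13864 nt of the gene. Its first aavFto peak, chr1:45325402-45345974 on the plus strand, had 43 blocks and 3082 nt, the second largest number of blocks and the third greatest length of the table. Its fold enrichment of 140 was the fourth highest in the authors' deposited table, where the maximum was 144. The second peak, chr1:45346094-45348809, followed after a gap of 119 nt and had 4 blocks and 689 nt.

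Col1a2 (Entrez ID 12843, chromosome 6 from 4505618 to 4541543) was broken into 6 peaks of 150 to 1019 nt in the same table. They held 29 blocks and 2340 nt, against 52 blocks and 4673 nt in the 3 peaks of Col1a1. The gaps between them ranged from 59 to 3492 nt of genome. The last, chr6:4537406-4540795, was the longest at 1019 nt and the strongest, with a fold enrichment of 111 against 53.6 to 92.1 for the other 5 in the authors' deposited table. Serpinh1 (Entrez ID 12406, chromosome 7 from 99345375 to 99353239, minus strand) had 1 aavFto peak, chr7:99346001-99347296, with 3 blocks and 686 nt, whose fold enrichment was 82.2 in the authors' deposited table. It ended 626 nt before the 3′ end of the gene.

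**Figure D1:**
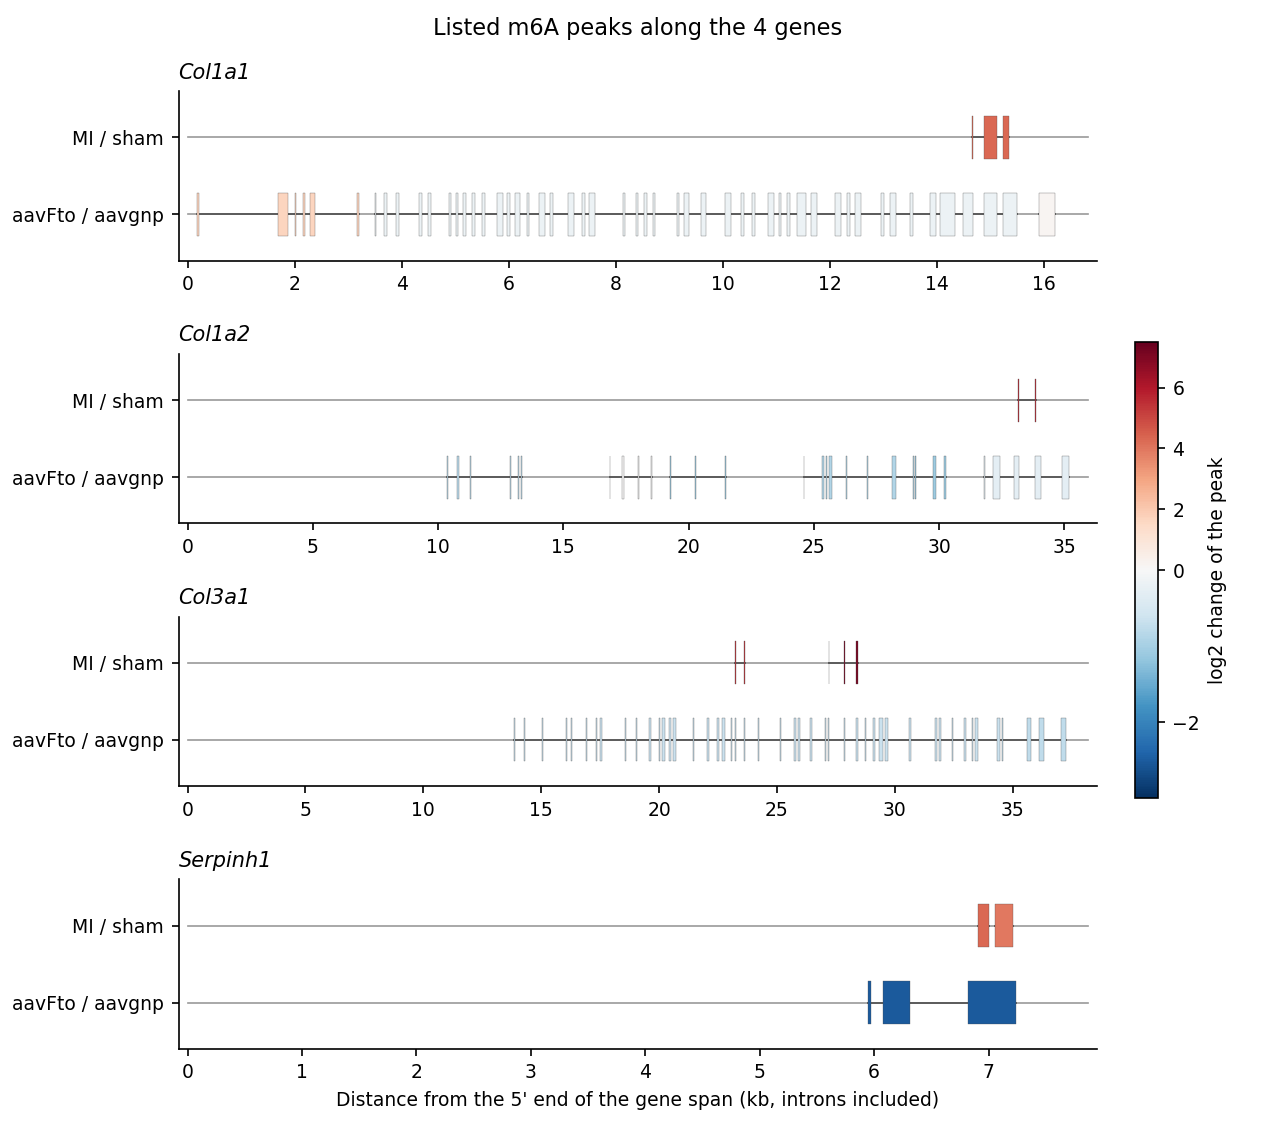
Listed peaks along each gene, drawn from the 5′ to the 3′ end of the gene span in kb with introns included. Boxes are the blocks of a peak, the dark line joins the blocks of 1 peak, the thin grey line is the gene, and colour is the log2 change (the scale is stretched below 0). The MI peaks are few and short and lie at 61.4% to 93.3% of the gene span, while the aavFto peaks of Col1a1 run from near the 5′ end to near the 3′ end.

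The block lengths carried the exon pattern of fibrillar collagens, in which the exons of the triple helix are built on a unit of 54 nt, or 18 codons of Gly-X-Y repeats. Leaving out the first and last block of each peak, whose outer edges are set by the peak, 95 of the 107 inner blocks of the 3 collagen genes in the aavFto table measured 45, 54, 99, 108 or 162 nt (88.8%). Of these 52 were 54 nt and 19 were 108 nt long. Inner blocks end at splice junctions on both sides, so their lengths describe exon structure and not m6A. The same 5 lengths made up 18 of 282 inner blocks (6.38%) in peaks of genes that are not collagens, and 10 of 40 (25%) in peaks of other collagen genes. The 5 lengths are 1 to 3 units of 54 nt, or 1 or 2 units less 9 nt, and were picked after the block lengths had been seen. A length divisible by 9, the number of nucleotides in 1 Gly-X-Y repeat, occurred in 99 of 107 inner blocks of the 3 genes (92.5%), in 24 of 40 of other collagen genes (60.0%) and in 17.0% of those outside collagens.

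The longest peaks of Col1a1 and Col3a1 ran through almost the same series of blocks. From the second block on, 25 blocks in a row had equal lengths in both genes. The next block of Col1a1, its 27th, was 108 nt long where Col3a1 had 2 blocks that add up to 108 nt, and the following 14 blocks again had equal lengths. The order was thus shared over 39 blocks with 1 difference. This too is a likeness of exon structure, not of m6A or its change. On the 3′ side Col1a1 went on with 4 blocks of 283, 191, 243 and 252 nt, and Col3a1 ended in a partial block of 127 nt. Serpinh1, which has no triple helix, had a single inner block, of 233 nt.

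**Figure D2:**
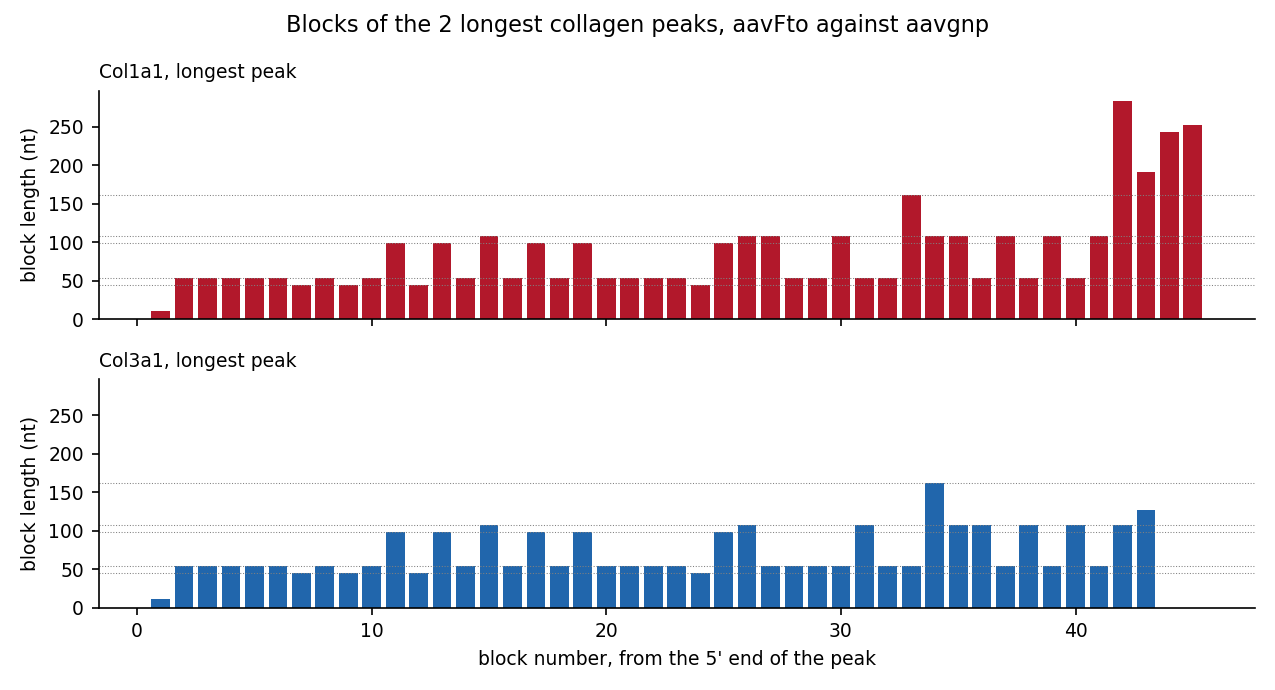
Block lengths in nt (vertical axis, from 0) in order from the 5′ end (horizontal axis) for the longest Col1a1 peak, with 45 blocks, and the longest Col3a1 peak, with 43, both from the aavFto table. Dotted lines mark 45, 54, 99, 108 and 162 nt. The profiles match from the second block, and from block 27 of Col1a1 that of Col3a1 is shifted by 1 block.

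The comparison of MI with sham addressed how m6A peaks differ between infarcted and uninjured ventricle. All 6 listed peaks of the 4 genes had positive changes, with log2 values of 3.94 to 7.17 in the authors' deposited table, and a peak each in Col1a1 and Col3a1 passed the FDR of 0.05. The median over the 6 was 4.885, beside 1.92 over all 116 peaks. These 2 of 6 stood beside a background of 12.9% of all listed peaks called in the positive direction. At an unadjusted p under 0.05, 4 of the 6 were positive, beside a background of 21.6%. A positive sign alone is common there, with 84.5% of all listed peaks above 0.

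In Col1a1 the called peak, chr11:94950885-94951575, had 361 nt in 3 blocks and ended 1467 nt before the 3′ end of the gene. Its log2 change was 4.31, a 19.8-fold difference, and the authors' deposited table gave it an FDR of 2.09e-09. That was the smallest differential p among the 116 peaks. The same peak had a fold enrichment over input of only 14.3, the fourth lowest of the authors' deposited table, where the median was 65.7. By log10 enrichment p, at -7.74 against a median of -5.48 in the authors' deposited table, it ranked 29th of the 116.

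For Col3a1 the called peak was chr1:45338738-45339973, with 180 nt in 3 blocks. Its change of 7.17 (FDR 0.0141) was the second highest of the authors' deposited table and corresponds to a 144.0-fold difference. The read counts behind this ratio were not analysed here. A second Col3a1 peak lay 3555 nt upstream, at chr1:45334772-45335182, with 91 nt in 2 blocks. It stood at 5.46 (unadjusted p 0.0468, FDR 0.328) in the authors' deposited table and did not pass.

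For Col1a2 a single peak was listed, chr6:4538764-4539506, with 91 nt in 2 blocks. In the authors' deposited table it stood at 5.64 (unadjusted p 0.0417, FDR 0.318). Serpinh1 had 2 peaks of 1 block each, chr7:99346239-99346328 and chr7:99346030-99346179, separated by 59 nt. The authors' deposited table placed the first at 4.28 (FDR 0.518) and the second at 3.94 (FDR 0.617). The Col1a2 and Serpinh1 peaks are thus values that did not pass the authors' test. Their log10 enrichment p lay between -5.39 and -4.22 in the authors' deposited table, and none of the 6 peaks was in the strongest 20% of that table by enrichment p.

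**Figure D3:**
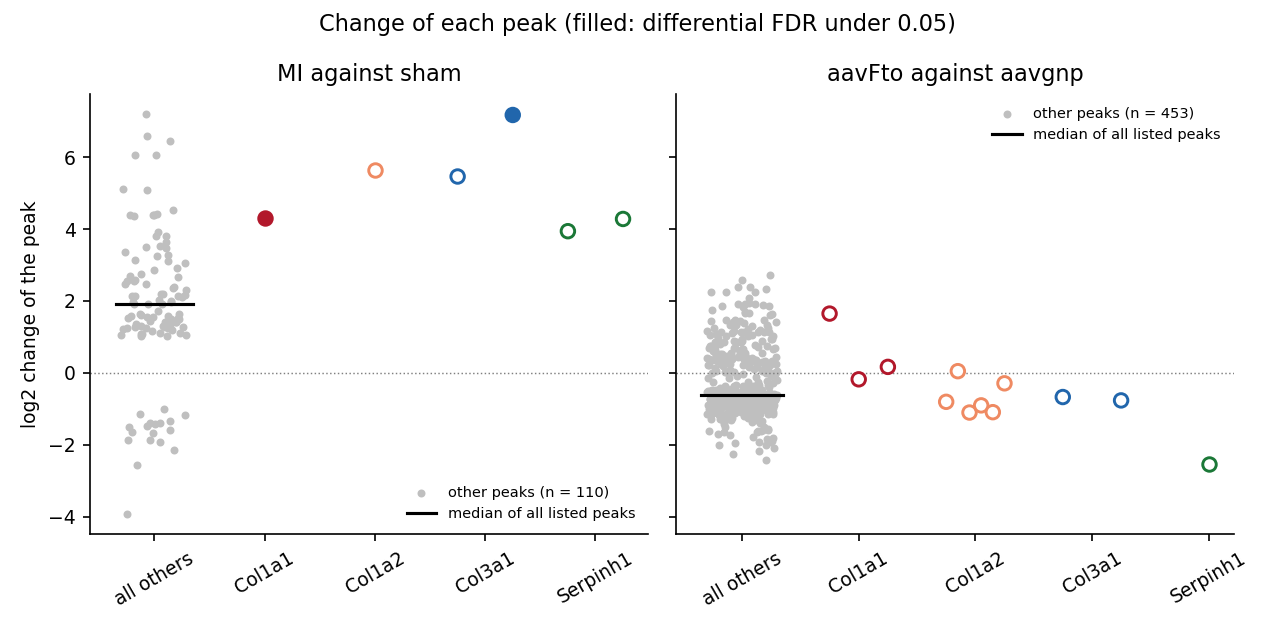
Log2 change of every listed peak (vertical axis), with grey points for all other genes, a bar at the median of all peaks, and coloured circles for each of the 4 genes, filled where the authors' FDR is under 0.05. Horizontal offsets within a group carry no value. After MI all 6 peaks lie above the median of 1.92 and 2 are filled, while with aavFto the 12 peaks lie between -2.52 and 1.65 and none is filled.

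The position of the MI peaks within the blocks was compared across the genes. In Col1a1 the called peak took the last 15 nt of the 191 nt block, the whole of the 243 nt block after it and the first 103 nt of the 252 nt block after that. In Col1a2 the peak took the last 47 nt of a block of 185 nt and the first 44 nt of the block after it, which was also 243 nt long. The peaks of both chains of type I collagen therefore crossed the junction into a block of 243 nt near the 3′ end, 1467 and 2037 nt from the end of the gene span. The Col3a1 peaks lay farther upstream, over blocks 21 and 22 and blocks 29 to 31 of the 43-block peak, all of 54 or 108 nt. Both Serpinh1 peaks lay inside the last block, of 422 nt, of the aavFto peak.

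The comparison of aavFto with aavgnp addressed whether m6A peaks of infarcted hearts differ with the Fto vector. None of the 12 peaks passed the FDR of 0.05 in the authors' test, which called 1.72% of all listed peaks, all of them positive. Of the 12, 9 were negative and 3 positive, with a median of -0.72. Over all listed peaks 67.3% were negative and the median was -0.61, so the sign and median of the 12 were near the background. The authors' deposited table gave 10 of the 12, and 95.3% of all peaks, the same FDR of 0.713.

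One of the 12 had an unadjusted p under 0.05, the 43-block peak of Col3a1 at -0.67 (p 0.0447, FDR 0.713) in the authors' deposited table. That is 1 of 2 negative peaks of the table under this p, a background of 0.43%. A further 18 of the 465 peaks (3.87%) were positive under it, none of them in the 4 genes. The other negative peak was in Tmsb4x, which encodes thymosin beta 4, at -1.35 (p 0.0490). The second Col3a1 peak stood at -0.76 (p 0.207) in the authors' deposited table. The values of both Col3a1 peaks were thus negative and of like size, 1.59-fold and 1.70-fold, and neither passed the FDR.

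Col1a1 was the least uniform of the 4 genes. From 5′ to 3′ its 3 peaks stood at 1.65 (p 0.246), -0.18 (p 0.343) and 0.17 (p 0.705) in the authors' deposited table. The 45-block peak thus differed between the vector groups by 1.13-fold, and the largest value came from the peak at the 5′ end. Col1a2 ranged from -1.10 to 0.05 over its 6 peaks, 5 of them negative, in the authors' deposited table. Its longest and strongest peak stood at -0.29 (p 0.438) there, closer to 0 than 4 of the other 5. Of the 6, 3 Col1a2 peaks shared both change and p exactly with peaks of other genes, the first with Dpt, the third with Tln1 and the fifth with Ik and Pln. How common such ties are over all 465 peaks is not given here.

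Serpinh1 stood at -2.52 (p 0.121, FDR 0.713) in the authors' deposited table, the lowest change of all 465 peaks. This corresponds to a ratio of 5.74-fold between the vector groups, yet the authors' test did not call it at either threshold. By differential p, over both directions, it was 40th of the 465.

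Ranked by enrichment p, 5 of the 12 peaks were in the strongest 20% of the table, 2 of Col3a1, 2 of Col1a2 and the long one of Col1a1. All 5 were negative, at -0.18 to -0.80 in the authors' deposited table, whereas 36.6% of the 93 peaks in that class were negative and their median was 0.30. No test of this difference was made, since peaks of 1 transcript share their libraries and are not replicates. The authors' unadjusted differential p of the 5 ranged from 0.0447 to 0.597, and none passed the FDR. The weakest of the 5 by enrichment p, in Col1a2, ranked 93rd, the last of that class.

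**Figure D4:**
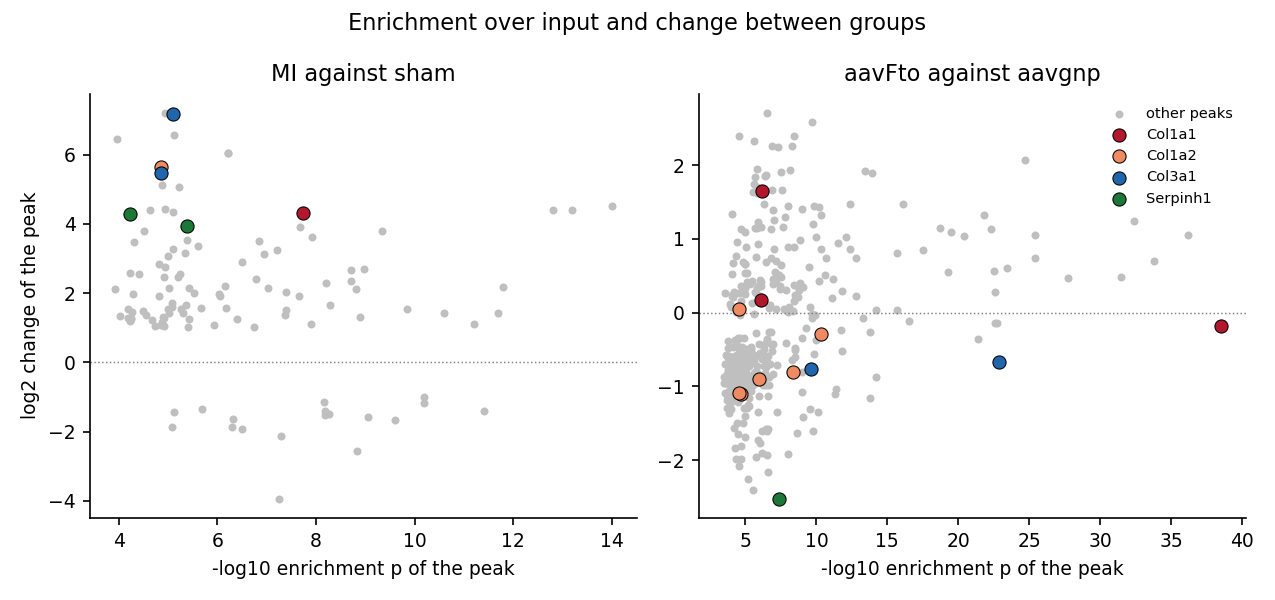
Enrichment over input as −log10 p (horizontal axis) against log2 change (vertical axis) for every listed peak, with the 4 genes in colour. After MI none of the 6 peaks is in the strongest 20% by enrichment p, and all have high changes. With aavFto the 5 most enriched peaks of the 4 genes lie below 0, none past the FDR. Most strongly enriched peaks of other genes lie above 0.

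The sites were then matched between the tables. All 6 MI peaks lay wholly within the blocks of an aavFto peak of the same gene, and across all genes 71.6% of the MI peaks lay wholly within an aavFto peak. They fell in 4 of the 12 aavFto peaks, and the other 8 had no counterpart. Lacking one was common, since all genes together gave 122 overlapping pairs. At most 122 of the 465 aavFto peaks thus had a counterpart. The matched peaks were unlike in extent, since an MI peak covered between 2.95% (Col3a1) and 21.9% (Serpinh1) of the length of its aavFto partner.

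In all 6 matched pairs the change was positive after MI and negative with aavFto. By the authors' deposited table for each contrast, the Col1a1 site stood at 4.31 and -0.18 and the Col1a2 site at 5.64 and -0.29. Col3a1 had 7.17 and 5.46 at its MI peaks, both inside the peak at -0.67, in the authors' deposited table for either contrast. Serpinh1 had 4.28 and 3.94 inside the peak at -2.52, again from the authors' deposited table for either contrast. Over all genes 60 of 122 overlapping pairs had this combination of signs (49.2%). With the sign of 1 table turned, 0 of the 6 pairs would be opposite. The 6 pairs rest on 4 aavFto peaks, none called, and only the 2 Serpinh1 pairs had changes of at least 1 in both tables.

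**Figure D5:**
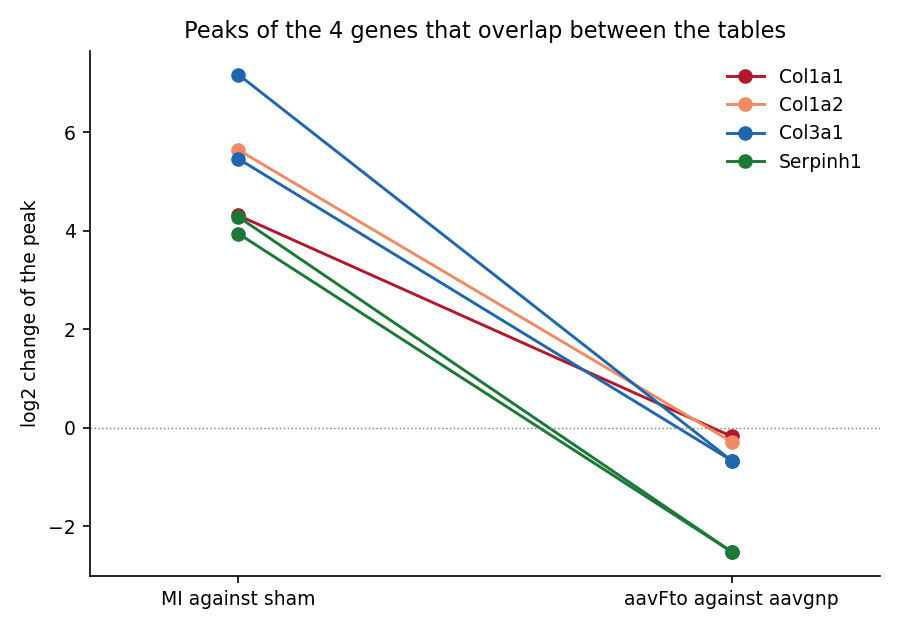
Log2 change (vertical axis) of the 6 overlapping sites in MI against sham (left) and aavFto against aavgnp (right), each line joining an MI peak to the aavFto peak that contains it. All 6 lines fall from between 3.94 and 7.17 to between -2.52 and -0.18, and lines of 1 gene end at the same aavFto peak.

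Other genes of collagen production and assembly were looked up in both tables, each gene by its peak of smallest differential p. Of 19 genes of collagen folding and modification, 2 were listed after MI, both positive, as were 88.3% of the 77 genes listed there. They are endoplasmic reticulum chaperones, Hsp90b1 at 1.73 and Hspa5 at 1.61 in the authors' deposited table, well under the 4.28 of Serpinh1. With aavFto 3 of the 19 were listed, all negative. The authors' deposited table gave -0.98 for P4hb, a subunit of prolyl hydroxylase, -0.98 for Hspa5 and -0.75 for Hsp90b1. None of these passed the FDR. With aavFto, P4hb and Hspa5 had the same differential p as well, 0.561 in the authors' deposited table.

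Among 21 fibril-associated and fibril-regulating genes, 3 were listed after MI, all positive, with a median of 5.12 beside 1.61 over the 77 genes of the table. None of the 3 passed the FDR. Postn, which encodes the matricellular protein periostin, stood at 6.58 (p 0.0219, FDR 0.200) in the authors' deposited table. The small proteoglycan gene Bgn stood at 5.12 (FDR 0.368), and Sparc, whose product binds collagen, at 3.26 (p 0.00724, FDR 0.0851), in the authors' deposited table. With aavFto 8 of the 21 were listed, 7 negative and 1 positive, none past the FDR. Lowest in the authors' deposited table was Fn1, fibronectin, at -2.41 (p 0.138). It was followed by Bgn at -1.60, Eln, elastin, at -1.10 and Col6a1, a chain of type VI collagen, at -1.02 in the authors' deposited table.

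Of the 8 other fibrillar collagen genes none was listed after MI, and Col5a1 alone was listed with aavFto, at -0.81 (p 0.596) in the authors' deposited table. Of 15 genes of secretion, processing and crosslinking, 2 were listed with aavFto, the crosslinking enzyme genes Loxl1 at -1.06 and Tgm2 at -0.86 in the authors' deposited table. Of 15 genes of the TGF-beta pathway, 1 was listed, Ltbp2, at -0.83 in the authors' deposited table. None of these last 2 lists was listed after MI, and none of the 11 collagen-degrading enzymes and inhibitors in either table. Of the 271 genes listed with aavFto, 66.4% were negative, with a median of -0.65.

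Markers of cell types were read beside the collagen peaks. In MI against sham 88.3% of the 77 listed genes were positive, with a median of 1.61. There 2 of 12 fibroblast markers were listed, both positive, with a median of 3.485. They were Clu at 4.39 and Pdgfrb at 2.58 in the authors' deposited table. Of 5 markers of activated fibroblasts 1 was listed, Postn. None of these passed the FDR. Of 8 macrophage markers 2 were listed, both positive, with a median of 2.835, and of 6 endothelial markers 2, both positive, with a median of 2.105. Both listed cardiomyocyte markers, of 7, were negative and past the FDR, Atp2a2 at -3.93 (FDR 0.0288) and Myh6 at -2.56 (FDR 0.0269) in the authors' deposited table. Of all 116 listed peaks 15.5% were negative, and 2 (1.72%) were negative and past the FDR. With aavFto, where 66.4% of all listed genes were negative with a median of -0.65, 7 fibroblast markers were listed, 6 of them negative, with a median of -0.43. All 3 listed markers of activated fibroblasts were negative. Of the macrophage markers 3 were negative and 1 positive, Apoe, at 1.14 (p 0.0240, FDR 0.713) in the authors' deposited table. Both listed endothelial markers were negative. Of the 7 cardiomyocyte markers 5 were positive, with a median of 0.57 and 2 genes past the FDR, beside 1.72% of all listed peaks. The part of tissue make-up and of transcript level in the changes of the collagen peaks was not tested, and in bulk ventricle more cells of a type and more RNA per cell cannot be told apart.

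The genes whose pair of changes lay closest to that of Col1a1, at 4.31 and 1.65 by the peak of smallest differential p in each table, were sought among the 74 genes found in both. In order of distance they were Myh7, which encodes the fetal form of ventricular myosin, at 4.35 and 1.47, Itgb5, an integrin subunit, at 3.54 and 1.20, and Apoe, apolipoprotein E, at 3.51 and 1.14, from the authors' deposited table for either contrast. Hsp90ab1, a cytosolic chaperone, followed at 2.91 and 2.26, and Cst3, cystatin C, at 2.68 and 1.48, from the authors' deposited table for either contrast. None of the other 3 collagen and chaperone genes was among these 5. The aavFto value of Col1a1 used here comes from its peak at the 5′ end, and the mean over its 3 peaks was 0.55. The 2 values of Col1a1 thus belong to different sites. Its MI peak at 4.31 lay inside another, longer aavFto peak, which stood at -0.18, opposite in sign to 1.65. Close to 4.31 and -0.18 were Clu, at 4.39 and -0.12, and Nppa, at 4.52 and -0.36, neither of them among the 5. The order above therefore does not hold for the matched site of Col1a1. The likeness rests on 2 values per gene and describes these libraries only.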

How the data were processed

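MeRIP-seq and input libraries were made from poly(A)-selected, fragmented RNA of left ventricle and read as single reads of 50 bp, per the labels' protocols, with 200 µg of RNA per group. The submitters' processing notes name STAR 2.5.3a and the build mm10. The peak caller, its thresholds and the scaling of libraries were not given in the sources used here. Per the file headers, the authors gave for each peak an enrichment p-value (the score column), its log10 p and FDR, a fold enrichment over input (a linear ratio), a log2 change between groups and the log10 of its differential p and FDR. Log10 values are printed as p and FDR. No test was computed here, since each group had 1 library. Depth is unknown, so no interval is given.

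Entrez IDs were matched to RefSeq genes of GRCm38.p6, the assembly of mm10. All 105 IDs of the MI table and all 449 of the aavFto table matched. The 11 and 16 peaks without an ID stayed in the background counts. Coordinates are 1-based. Sites were matched when blocks overlapped by at least 1 nt on the same strand. Peak parsing and overlap were checked on simulated peaks (python 3.11.15, pandas 2.3.3). The gene table holds no exons and no genome sequence was used, so peaks were not assigned to UTR or coding sequence, and the planned DRACH motif search was not run. The members and gene lists were chosen with earlier results of these data known. Named genes were the 4 members, up to 4 genes per list by size of change, and the 5 genes nearest to Col1a1. Cell type markers, Tmsb4x, Nppa and the genes tied with Col1a2 peaks (Dpt, Tln1, Ik and Pln) were named in addition. Alternatives covered the FDR, the enrichment threshold, merging of peaks, the value that stands for a gene, the size of change and the overlap rule.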

Additional observations from a re-analysis of the deposited data

How the results depend on the processing

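At an FDR of 0.01 in place of 0.05, 1 of the 2 called MI peaks remained, that of Col1a1, and at an unadjusted p under 0.05 the counts were 4 after MI and 1 with aavFto. Merging overlapping peaks, or requiring a log10 enrichment p under -5, left both counts as they were (2 and 0). The median change of the MI peaks, 4.885, was 4.31 with that enrichment threshold and 4.975 with 1 value per gene, taken either way. The aavFto median of -0.72 was -0.67 with the enrichment threshold, -0.48 with the peak of smallest differential p per gene, -0.70 with each gene's mean and -1.095 among changes of at least 1. No setting turned its direction. The 6 matched sites stayed 6 under both other overlap rules. With 2 alternatives added after seeing the data, the number of matched sites with opposite signs went from 6 to 0 with the sign of 1 table turned, by construction, and to 2 where both changes had to be at least 1. Of 16 alternative values for single genes, 9 equalled the value given and 7 moved, none of them changing sign. Taking the longest peak was not among these alternatives, and that of Col1a1 stood at -0.18 with aavFto, opposite in sign to 1.65. With aavFto, Col1a1 went from 1.65 to 0.55 with the mean over its peaks, and Col1a2 from -0.29 to -0.69 with that mean and to -1.10 at its peak of largest change. No paired analysis was possible because each group had 1 library and no test was fitted.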
